A study of Mus musculus with 2 samples.

Results

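Cd163 and 7 other scavenger and endocytic receptors of phagocytes (Marco, Msr1, Stab1, Mrc1, Lrp1, Scarb1 and Scarb2) were followed in single cells of a mouse tumor that had been split by a magnetic column. The 8 genes were chosen by symbol among the 32285 genes of the count tables, and each of the 8 had 1 entry there. The tumor was a syngeneic fibrosarcoma implanted subcutaneously in mice of genotype WT C57BL/6. Digested tumor cells were run over the column, which gave an iron-negative flowthrough (cells that passed) and an iron-positive eluate (cells that were held), and 1 library of 10x Genomics 3' single-cell RNA was made from each. The labels do not say how many tumors or mice gave the cells, and no treatment other than the column is named for either fraction. With 1 library per fraction there was no replicate and no test. Every interval is an exact 95% interval that covers counting error only, and a difference between the fractions cannot be told apart from a difference between the libraries.

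Scavenger receptors bind modified lipoproteins, glycoproteins, free hemoglobin and cell debris and carry them into the endosome. In macrophages CD163 takes up hemoglobin bound to haptoglobin and LRP1 takes up heme bound to hemopexin, so that both feed heme iron into the cell. Heme oxygenase then opens the heme ring, and ferroportin exports the released iron.

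The iron-negative library held 10124 cell barcodes and the iron-positive library 13668, and 9403 and 12143 of them were kept as cells with at most 15% mitochondrial UMIs and at least 200 detected genes. UMIs (unique molecular identifiers) are the counted RNA molecules. The kept cells had a median of 13017 UMIs in the iron-negative and 7349 in the iron-positive library, and the libraries shared 85 barcodes (0.840% and 0.622% of them). Cells were gated by marker genes that left out the 8 receptors. Phagocytes numbered 9166 (97.5%) in the flowthrough and 9813 (80.8%) in the eluate, and each of the 11 phagocyte markers exceeded 50 CPM in both gates. CPM scales the counts to the UMI total of the gate. The iron-positive library also held 629 endothelial, 359 mesenchymal and 82 pericyte or smooth muscle cells, while the iron-negative library held 69 mesenchymal and 13 endothelial cells. Mesenchymal cells can be fibroblasts or fibrosarcoma cells, which the markers do not separate. Cells that passed the phagocyte gate and another gate (40 and 267) were left out, and no doublet caller was run.

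RefSeq start sites on GRCm38.p6 matched 6 of the 8 genes by symbol, all but Msr1 and Scarb1. The 250 bases before the start are printed, 5′ to 3′ on the gene's strand, for the 2 receptors whose phagocyte level was higher in the iron-positive library, Cd163 (chr6:124304401-124304650, plus strand) and Marco (chr1:120505025-120505274, minus strand), and for the one that was lower by at least 1.5-fold, Stab1 (chr14:31168642-31168891, minus strand). Capitals mark GAGGAA, the core that PU.1, the factor of myeloid cells, is known to bind.
Cd163: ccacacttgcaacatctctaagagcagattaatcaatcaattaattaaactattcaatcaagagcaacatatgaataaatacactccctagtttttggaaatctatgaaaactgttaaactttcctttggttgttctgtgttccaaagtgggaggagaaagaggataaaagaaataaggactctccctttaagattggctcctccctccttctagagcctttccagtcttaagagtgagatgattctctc
Marco: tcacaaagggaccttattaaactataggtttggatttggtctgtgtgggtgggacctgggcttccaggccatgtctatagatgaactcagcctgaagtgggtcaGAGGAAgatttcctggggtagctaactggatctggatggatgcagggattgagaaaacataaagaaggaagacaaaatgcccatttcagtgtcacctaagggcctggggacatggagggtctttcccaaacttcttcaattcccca
Stab1: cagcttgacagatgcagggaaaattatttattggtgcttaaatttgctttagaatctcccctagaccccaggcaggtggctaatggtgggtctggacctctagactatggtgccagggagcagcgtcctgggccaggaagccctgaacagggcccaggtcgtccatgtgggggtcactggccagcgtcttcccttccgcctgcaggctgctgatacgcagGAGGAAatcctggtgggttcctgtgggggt
GAGGAA was searched on both strands and occurred in 0 copies before Cd163, 1 before Marco, 1 before Stab1, 3 before Mrc1 and 0 before Lrp1 and Scarb2. It occurred in 7639 of 32851 listed windows of the same length (23.3%). TGACNNNGC, the core bound by small Maf partners such as NRF2 and BACH1, was searched the same way and occurred before Lrp1 and Scarb2, once each, and in 10.2% of all windows. The GC share of the window was 36.8% for Cd163 and 67.2% for Lrp1, the lowest and the highest of the 6. These matches describe the letters of the windows and are not shown to be binding sites.

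Among phagocytes, the hemoglobin receptor gene Cd163 and the particle receptor gene Marco were several-fold higher in the iron-positive library, Stab1 was lower, and the other 5 receptors differed by less than 1.5-fold. Cd163 (ENSMUSG00000008845, chr6:124304656-124330527) had 1799 UMIs (14.4 CPM) in the iron-negative and 5086 UMIs (56.2 CPM) in the iron-positive phagocytes. The ratio was 3.91 (3.70 to 4.12). Marco (ENSMUSG00000026390, chr1:120474538-120505024), a class A receptor that binds bacteria and particles, had 1297 UMIs (10.4 CPM) and 4493 UMIs (49.6 CPM), a ratio of 4.79 (4.50 to 5.09). So 2 of 8 receptors were higher by at least 1.5-fold, beside 2.29% of the 7714 genes measured at 10 CPM or more in either library. Both values rest on few cells: cells with 5 or more UMIs (333 of 9813 iron-positive phagocytes) held 74.6% of the iron-positive Cd163 UMIs, and for Marco 171 cells held 78.9%. Intervals over UMIs are therefore too narrow for these 2 genes. The log2 ratio of Cd163 was 1.97, and 1.37 without the Cd209f Lyve1 and Retnla Cbr2 states of the phagocytes. That of Marco was 2.26, and 1.27 with all states weighted equally.

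Stab1 (ENSMUSG00000042286, chr14:31139013-31168641), which encodes stabilin-1, a receptor for modified lipoproteins and SPARC, went the other way. It had 362 CPM in iron-negative and 222 CPM in iron-positive phagocytes, 1.63-fold lower (ratio 0.615, 0.605 to 0.625). It was the 1 receptor of 8 lower by at least 1.5-fold, beside 0.622% of all genes measured. With states weighted equally, 0 of 8 were lower by that much, and the log2 ratio of Stab1 was -0.48 in place of -0.70. Stab1 overlaps Nt5dc2 on the other strand.

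The mannose receptor gene Mrc1 (chr2:14229392-14332057) had 1021 and 851 CPM, a ratio of 0.833 (0.826 to 0.840), and shares its strand with Mir511. Msr1 (chr8:39581685-39642673), the type A receptor for modified low-density lipoprotein, had 452 and 444 CPM, a ratio of 0.982 (0.970 to 0.995). The sign of the Msr1 difference turned with the scaling, from a log2 ratio of -0.03 to 0.06 when libraries were scaled by the median ratio over genes. Lrp1 (chr10:127538161-127621148), the hemopexin receptor gene, had 268 and 243 CPM, a ratio of 0.906 (0.891 to 0.922). Each of these 3 receptors thus differed by less than 1.5-fold between the libraries.

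The class B receptors were split. Scarb1 (chr5:125277087-125341094), the receptor gene for high-density lipoprotein, had 25.6 and 20.3 CPM, a ratio of 0.793 (0.748 to 0.840), and overlaps Gm42633 on its strand. Scarb2 (chr5:92441314-92506833), which encodes a membrane protein of the lysosome, had 122 and 133 CPM, a ratio of 1.09 (1.07 to 1.12), and its log2 ratio of 0.13 became -0.01 without the Cd209f Lyve1 and Retnla Cbr2 states. The median log2 ratio over all measured genes in phagocytes was -0.11. Relative to that median, the log2 ratios were 2.08 for Cd163, 2.37 for Marco, 0.24 for Scarb2, 0.08 for Msr1, -0.03 for Lrp1, -0.15 for Mrc1, -0.22 for Scarb1 and -0.59 for Stab1.

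In sums over all kept cells the stromal cells took part, and fewer phagocytes and less RNA per phagocyte cannot be told apart there. Cd163 was 3.08-fold and Marco 3.81-fold higher, beside 9.29% of 8241 genes higher by at least 1.5-fold. Stab1 (1.95-fold) and Mrc1 (1.54-fold) were lower, beside 3.98%. Mrc1 no longer differed by 1.5-fold with median-ratio scaling (log2 ratio -0.52) or with each cell thinned to 1000 UMIs (-0.53), against -0.62. Scarb1 had 26.0 and 32.4 CPM and so was higher over all cells and lower over phagocytes, but over all cells its log2 ratio of 0.32 turned to -0.12 when each cell was thinned to 1000 UMIs.

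**Figure D1:**
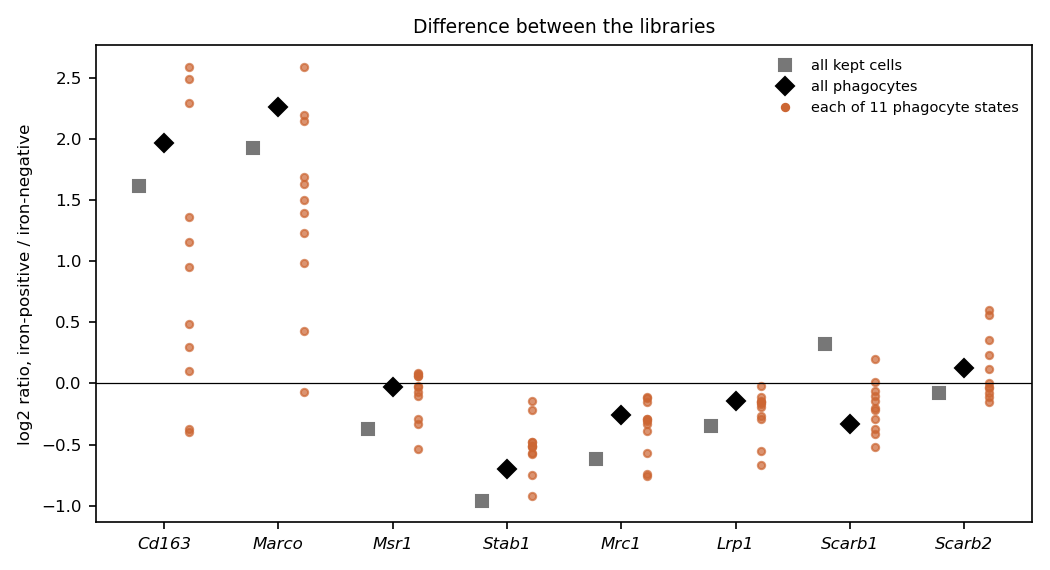
Log2 ratio of iron-positive over iron-negative level for each receptor (vertical axis), over all kept cells (squares), all phagocytes (diamonds) and each of 11 phagocyte states (circles). Cd163 and Marco lie between 1.62 and 2.26 over all cells and phagocytes on this scale, and the Stab1 and Mrc1 points are all below 0.

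Phagocytes were divided into 11 states named for their marker genes, each with at least 50 cells in both libraries. In no state were 703 iron-negative (7.67%) and 1409 iron-positive (14.4%) phagocytes, with median depths of 7406 and 2003 UMIs. Cd163 and Marco had their highest levels in the same pair of states, the Cd209f Lyve1 and Retnla Cbr2 states, which were marked by genes known from resident tissue macrophages. These states held 2306 and 762 of the 5086 Cd163 UMIs of iron-positive phagocytes, and 196 and 474 of the 1799 of iron-negative ones. For Marco they held 30.9% and 10.8% in iron-positive and 17.0% and 19.1% in iron-negative phagocytes, where the Mmp9 Arg1 state held 19.6%. In iron-positive cells Cd163 reached 474 CPM (455 to 494) in the Cd209f Lyve1 state and 246 CPM (229 to 264) in the Retnla Cbr2 state. The next was the type I interferon state at 62.4 CPM (55.6 to 69.8), and the lowest was the cycling state at 6.34 CPM (4.99 to 7.95). In iron-negative cells the Retnla Cbr2 state led with 127 CPM (116 to 139), followed by the Cd209f Lyve1 state with 96.3 CPM (83.3 to 111). The MHC class II state was lowest there, with 2.72 CPM (2.11 to 3.44). Many neighbours below the leading pair were not separated, since the interval of their ratio held 1. In the iron-negative library this held among the Mmp9 Arg1, monocyte and Mmp12 states, between the type I interferon and Fcrls Cx3cr1 states, and among the cycling, interferon gamma, Il1r2 and MHC class II states. In the iron-positive library it held among the Mmp12, monocyte and interferon gamma states, and among the Fcrls Cx3cr1, MHC class II, Il1r2 and cycling states. The lowest state was thus not separated from its neighbour in either library. Each state was set against the next one only, so the ends of such a run can differ. In iron-negative cells the intervals of the cycling state (4.53 CPM, 3.57 to 5.66) and the MHC class II state did not overlap.

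Marco followed a like order. It had 285 CPM (270.5 to 301) in the iron-positive and 108 CPM (94.2 to 123) in the iron-negative Cd209f Lyve1 state, and 156 and 66.6 CPM in the Retnla Cbr2 state. The interferon gamma state held 68.3 CPM of Marco in iron-positive and 15.3 CPM in iron-negative cells, and the Mmp12 state 59.1 and 29.4 CPM. Over the 22 state sums of both libraries, the log2 levels of Cd163 and Marco had a Pearson r of 0.886. Cd163 and Scarb2 had an r of 0.822, Cd163 and Mrc1 0.727, Cd163 and Stab1 0.0346 and Cd163 and Scarb1 -0.708. These points share libraries and depth, so the coefficients are descriptions.

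**Figure D2:**
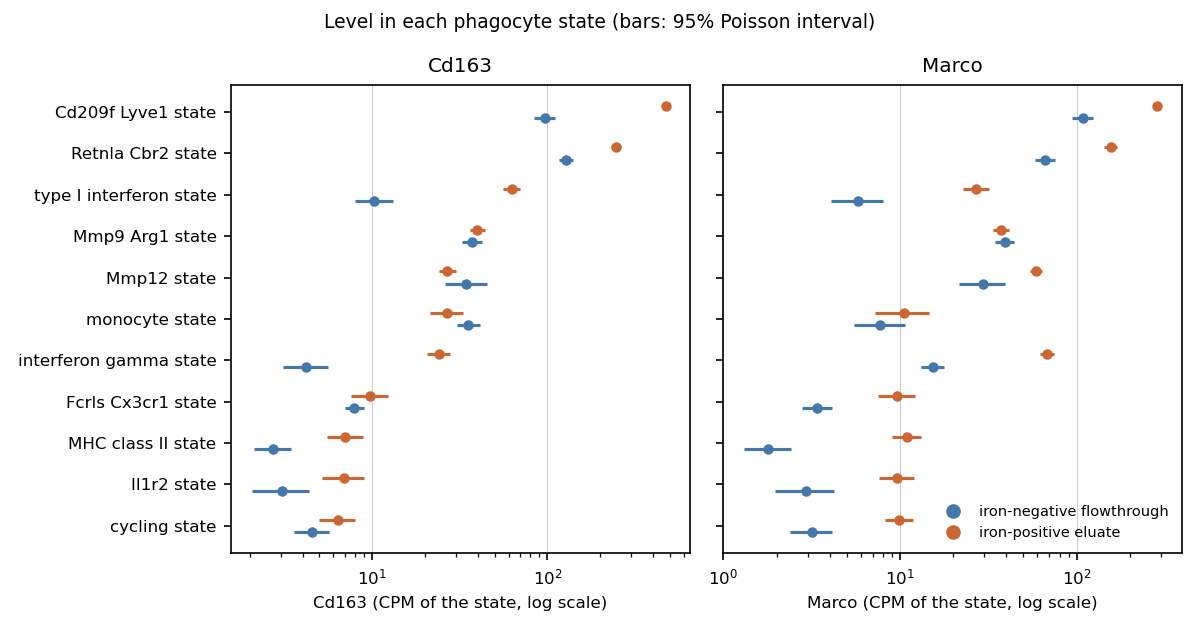
Level of Cd163 (left) and Marco (right) in CPM of the state, log scale, for 11 phagocyte states in the iron-negative flowthrough (blue) and the iron-positive eluate (orange), with exact Poisson intervals as bars. The Cd209f Lyve1 and Retnla Cbr2 states hold the highest levels of both genes in both libraries, and the orange point of Cd163 lies left of the blue one in the Mmp12 and monocyte states.

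Within states, the higher level of Cd163 in the iron-positive library was uneven. The ratio was 6.04 in the type I interferon state, 5.68 in the interferon gamma state and 4.93 in the Cd209f Lyve1 state. It was 1.93 in the Retnla Cbr2 state, 1.07 in the Mmp9 Arg1 state, 0.777 in the Mmp12 state and 0.756 in the monocyte state. The interval lay above 1 in 7 of 11 states and below 1 in the monocyte state alone, and after each cell was thinned to 1000 UMIs it lay above 1 in 2 of 11. Those 7 hold the MHC class II, Il1r2 and cycling states. The gain in Cd163 there (0.0388, 0.0249 and 0.00438 UMIs per cell) was under the highest stromal level of 0.0557. The Marco interval lay above 1 in 9 of 11 states. The ratios there ran from 2.01 in the Mmp12 state to 6.08 in the MHC class II state, the last on 114 and 45 UMIs. These 9 hold the MHC class II, Il1r2 and cycling states. There the share of iron-positive cells with Marco was no higher than in mesenchymal cells, as given with the shares of cells. In the others the highest ratio was 4.65, in the type I interferon state, whose share lay inside the interval of the mesenchymal share. These UMI intervals are too narrow, as few cells held most Marco UMIs. At 2000 UMIs per cell, Marco was found in 4.27% of iron-positive and 3.97% of iron-negative cells of the Mmp12 state. The intervals of the 2 shares overlapped in this state and in the Retnla Cbr2 and interferon gamma states. The Marco ratio was 0.954 in the Mmp9 Arg1 state, with an interval that held 1.

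In the Cd209f Lyve1 state, Cd163 and Marco (2 of 8) were higher by at least 1.5-fold, beside 4.91% of genes measured in that state, and Lrp1 (206 to 129 CPM) was the 1 receptor lower by that much, beside 7.77%. That state held 2.06% of iron-negative and 6.39% of iron-positive phagocytes, and its median depth was 8984 and 5810.0 UMIs. Giving the iron-negative state levels the iron-positive mix of states raised Cd163 from 14.4 to 24.0 CPM, 1.67-fold. Giving the iron-positive levels the iron-negative mix gave 32.0 CPM, 2.23-fold above the iron-negative value. For Marco the same exchanges gave 1.93-fold and 2.90-fold. Both the mix of states and the levels within states therefore differed in the direction of the total for these 2 genes, with cells in no state counted as a class of their own. In that class the Marco ratio was 9.06, on 507 iron-positive and 48 iron-negative UMIs, above the ratio in any of the 11 states. State scores lay within 0.1 of the limit in 7.17% and 8.77% of phagocytes.

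Stab1 and Mrc1 were lower in the iron-positive library in 11 of 11 states, each with an interval below 1. Both also lay below the median log2 ratio of all genes in each of the 11 states (-0.13 to -0.05), whereas Marco lay above it in 11 and Cd163 in 9. For Stab1 the ratio ran from 0.529 in the Mmp12 state (215 to 114 CPM) to 0.908 in the Retnla Cbr2 state (321 to 292 CPM). Stab1 was highest in the Fcrls Cx3cr1 state of both libraries, with 563 CPM (555 to 572) in iron-negative and 484 CPM (468 to 501) in iron-positive cells. That state is marked by genes shared with microglia and other resident macrophages, and it made up 22.5% of iron-negative and 6.57% of iron-positive phagocytes. Mrc1 was highest in the Cd209f Lyve1 and Retnla Cbr2 states, as Cd163 was, with 2442 and 2297 CPM in iron-negative and 1993 and 2120.4 CPM in iron-positive cells. Its ratio ran from 0.591 in the Mmp12 state to 0.927 in the type I interferon state. Mrc1 and Cd163 thus shared their leading states and differed in direction between the libraries.

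Lrp1 was highest in the Mmp9 Arg1 state, with 367 CPM in iron-negative and 362 CPM in iron-positive cells. Its level in the Cd209f Lyve1 and Retnla Cbr2 states was among the lowest, 206 and 210.1 CPM in iron-negative and 129 and 144 CPM in iron-positive cells. The Lrp1 interval lay below 1 in 9 of 11 states and held 1 in the others. Msr1 was lowest in the Retnla Cbr2 state of both libraries (304 and 249 CPM), and its interval lay below 1 in 5 states and above 1 in 3. Scarb2 had its highest levels in the Cd209f Lyve1 state (210.2 and 309.6 CPM) and the Retnla Cbr2 state (167 and 254 CPM). Scarb2 was higher in the iron-positive library by 1.47-fold and 1.52-fold in these 2 states, and its ratio was 0.900 or more in each of the other states. Scarb1 ran from 12.8 to 28.8 CPM over the states of both libraries, and its interval held 1 in 9 of 11 states.

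The share of phagocytes with a UMI was compared after thinning each cell to 2000 UMIs, and 554 iron-negative and 2199 iron-positive phagocytes were too shallow for it. Cd163 was detected in 2.47% (2.16 to 2.82) of iron-negative and 6.71% (6.16 to 7.30) of iron-positive phagocytes, and Marco in 0.906% (0.717 to 1.13) and 3.77% (3.35 to 4.22). Without thinning, the shares were 5.93% and 11.3% for Cd163 and 2.92% and 8.61% for Marco, at median depths of 13074 and 7947 UMIs. In iron-positive endothelial cells, which should lack both transcripts, the thinned shares were 0.415% for Cd163 and 0.622% for Marco, and in mesenchymal cells 0.685% and 1.71%. The unthinned shares of endothelial cells were 2.86% and 3.82%, at a median depth of 8367 UMIs. Iron-positive shares of Marco in the MHC class II (1.43%), Il1r2 (1.40%), monocyte (1.23%) and cycling (0.759%) states were no higher than the mesenchymal share. The Marco level was 9.58 to 10.9 CPM in these states, beside 1.60 to 3.40 CPM in the stromal gates. How much of it is background was not tested. The mesenchymal share of 1.71% rests on 5 of 292 cells, with an interval of 0.558 to 3.95. The Fcrls Cx3cr1 (1.84%), Mmp9 Arg1 (3.37%), type I interferon (3.48%) and interferon gamma (3.77%) shares of Marco lay inside it. The Marco share of all iron-positive phagocytes (3.77%) did too, but it lay above the endothelial interval (0.129 to 1.81). These shares of Marco were thus not separated from the mesenchymal share. The levels in the named states ran from 9.59 CPM (Fcrls Cx3cr1) to 68.3 CPM (interferon gamma), above the 1.60 CPM of mesenchymal cells. Few cells held most Marco UMIs. For Cd163 the mesenchymal share of 0.685% rests on 2 of 292 cells (0.0831 to 2.45). The iron-positive Cd163 shares of the Fcrls Cx3cr1 (1.67%), MHC class II (1.19%), Il1r2 (1.40%) and cycling (1.06%) states lay inside that interval. Mesenchymal cells were deeper before thinning (a median of 19168 UMIs), and the part of depth in their shares was not tested. In the iron-negative library 0 of 66 mesenchymal cells had Marco, which by its interval allows up to 5.44%, so the iron-negative share of 0.906% could not be set against a background at this number of cells.

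Stab1 was detected in 44.9% (43.9 to 46.0) of iron-negative and 31.8% (30.8 to 32.9) of iron-positive phagocytes, and Mrc1 in 74.4% and 65.0%. Msr1 (54.2% and 51.5%), Lrp1 (38.8% and 35.5%), Scarb1 (4.89% and 4.15%) and Scarb2 (21.7% and 23.3%) lay closer together. In the Cd209f Lyve1 state Cd163 was found in 11.8% (7.26 to 17.8) of cells from the flowthrough and 42.7% (38.0 to 47.5) of cells from the eluate. In the type I interferon state it was found in 34 of 460 iron-positive and 9 of 499 iron-negative cells (7.39% and 1.80%). A phagocyte had a median of 2 of the 8 receptors at this depth in both libraries, and 4.83% and 7.24% of cells had none of them.

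**Figure D3:**
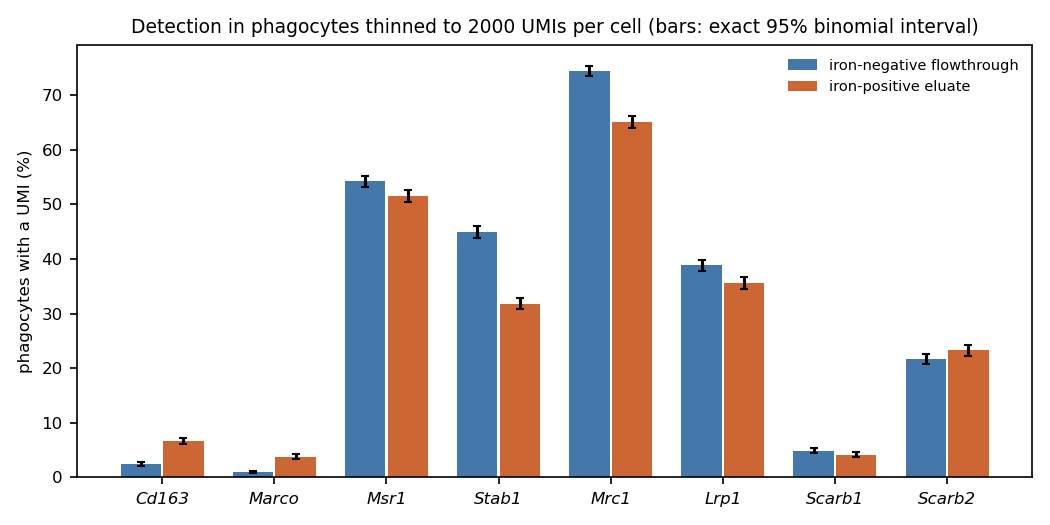
Share of phagocytes with at least 1 UMI of each receptor (vertical axis, percent) after thinning to 2000 UMIs per cell, with exact binomial intervals as bars. Cd163 and Marco stand higher in the iron-positive eluate (6.71% and 3.77%) and Stab1 and Mrc1 lower (31.8% and 65.0%) than in the iron-negative flowthrough.

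Free RNA of broken cells enters every droplet, so the phagocyte receptors were set beside stromal cells of the same library. In iron-positive stromal gates Cd163 had 0.0122 to 0.0557 UMIs per cell and Marco 0.0445 to 0.0610. The gain in Cd163 UMIs per cell from the iron-negative to the iron-positive library exceeded the highest stromal level in 4 of 11 states, the Cd209f Lyve1, Retnla Cbr2, type I interferon and interferon gamma states. The gain in Marco did so in 7 of 11, those 4 states and the Mmp12, MHC class II and cycling states. In the MHC class II and cycling states the gains were 0.0988 and 0.0848 UMIs per cell. The shares of cells with Marco there were no higher than in mesenchymal cells. The part of free RNA in these gains was not tested, and no gain is read from them. In the MHC class II state the gain in Cd163 was 0.0388 UMIs per cell, under the stromal level. Gains per cell were not scaled for depth, which differed between the libraries and between the gates. The summed mesenchymal markers were 26.7 CPM in iron-negative and 131 CPM in iron-positive phagocytes, and the endothelial markers 69.1 and 98.7 CPM, with 0 of the 10 and 0 of the 9 markers at 0 in either library. Their part in the receptor differences was not tested.

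Stromal cells carried a different set of the receptors. Scarb1 was 105 CPM in iron-positive endothelial cells and 5.18-fold (4.83 to 5.54) above the phagocytes of that library, and the 13 iron-negative endothelial cells gave 125 CPM on 60 UMIs. It was 1.76-fold above phagocytes in iron-positive mesenchymal cells (35.7 CPM) and 1.51-fold in pericytes or smooth muscle (30.6 CPM). In iron-negative mesenchymal cells the ratio to phagocytes was 1.09, with an interval that held 1 (0.890 to 1.33). At 2000 UMIs per cell Scarb1 was found in 4.45% of iron-positive mesenchymal cells and 4.15% of iron-positive phagocytes. The summed endothelial markers were 1349.6 CPM in iron-positive mesenchymal cells and 1051 CPM in pericytes or smooth muscle cells, beside 4827 CPM in endothelial cells. Their part in the Scarb1 levels was not tested. SR-B1, the product of Scarb1, is known to carry lipoproteins across endothelium. Lrp1, known in fibroblasts and smooth muscle as a clearance receptor for proteases, was 233 CPM in iron-positive mesenchymal cells beside 243 CPM in phagocytes, a ratio of 0.961 whose interval reached 1. Lrp1 was 10.9 CPM in endothelial cells, 22.3-fold lower than in phagocytes, and 49.6 CPM in pericytes or smooth muscle.

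Stab1, which sinusoidal and lymphatic endothelium is known to carry, was 79.3 CPM in endothelial cells, 0.357 (0.336 to 0.378) of the phagocyte level, 33.8 CPM in mesenchymal cells and 18.4 CPM in pericytes or smooth muscle. Scarb2 was 39.2 to 60.5 CPM in the 3 stromal gates, against 133 CPM in phagocytes. Cd163, Marco, Msr1 and Mrc1 stayed between 0.0121 and 0.0685 of their phagocyte level in each of the 3 gates. Cd163 had 1 UMI in 82 pericytes or smooth muscle cells and 0 UMIs in 46 T or NK cells. In mesenchymal cells, the stromal gate with over 50 cells in both libraries, Lrp1 was 196 CPM in iron-negative and 233 CPM in iron-positive cells and Scarb2 38.0 and 60.1 CPM. The ratios were 1.19 (1.10 to 1.29) and 1.58 (1.32 to 1.91), at median depths of 48063 and 19168 UMIs.

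**Figure D4:**
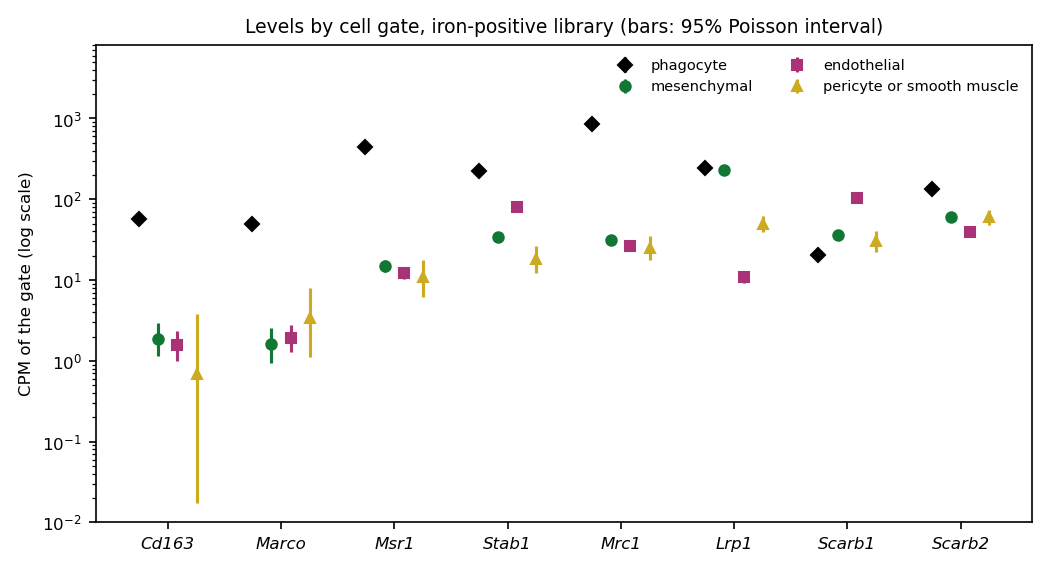
Level of each receptor in CPM of the gate (log scale) in phagocytes (diamonds), mesenchymal (circles), endothelial (squares) and pericyte or smooth muscle cells (triangles) of the iron-positive library, with exact Poisson intervals as bars. Scarb1 is highest in endothelial cells (105 CPM), Lrp1 lies side by side in phagocytes and mesenchymal cells (243 and 233 CPM), and Cd163 and Marco are at 3.40 CPM or less in each stromal gate.

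Receptors were then counted together in the same phagocyte, at 2000 UMIs per cell, beside the number that the product of their shares gives. In the iron-positive library 65 of 7614 cells had both Cd163 and Marco, where 19.3 would be found if the 2 were spread independently, a ratio of 3.37 (2.61 to 4.30). When the product was taken state by state and summed, 47.8 cells were given and the ratio was 1.36 (1.05 to 1.73). In the iron-negative library 3 cells had both, against 1.93, a ratio of 1.56 (0.321 to 4.54), so the pair could not be judged at this depth there. Cd163 was also found more often with Scarb2 (200 cells, ratio 1.68), Stab1 (234 cells, 1.44) and Mrc1 (459 cells, 1.38) than the product gives. It was found less often with Msr1 (174 cells, 0.661), Lrp1 (137 cells, 0.755) and Scarb1 (11 cells, 0.519). Of 28 pairs, 11 had an interval above 1 and 4 below 1 in the iron-positive library, and 8 and 0 in the iron-negative library. State by state, the Cd163 intervals still lay above 1 with Scarb2 (1.19), Stab1 (1.29) and Mrc1 (1.15) and below 1 with Msr1 (0.788), and held 1 with Lrp1 and Scarb1.

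**Figure D5:**
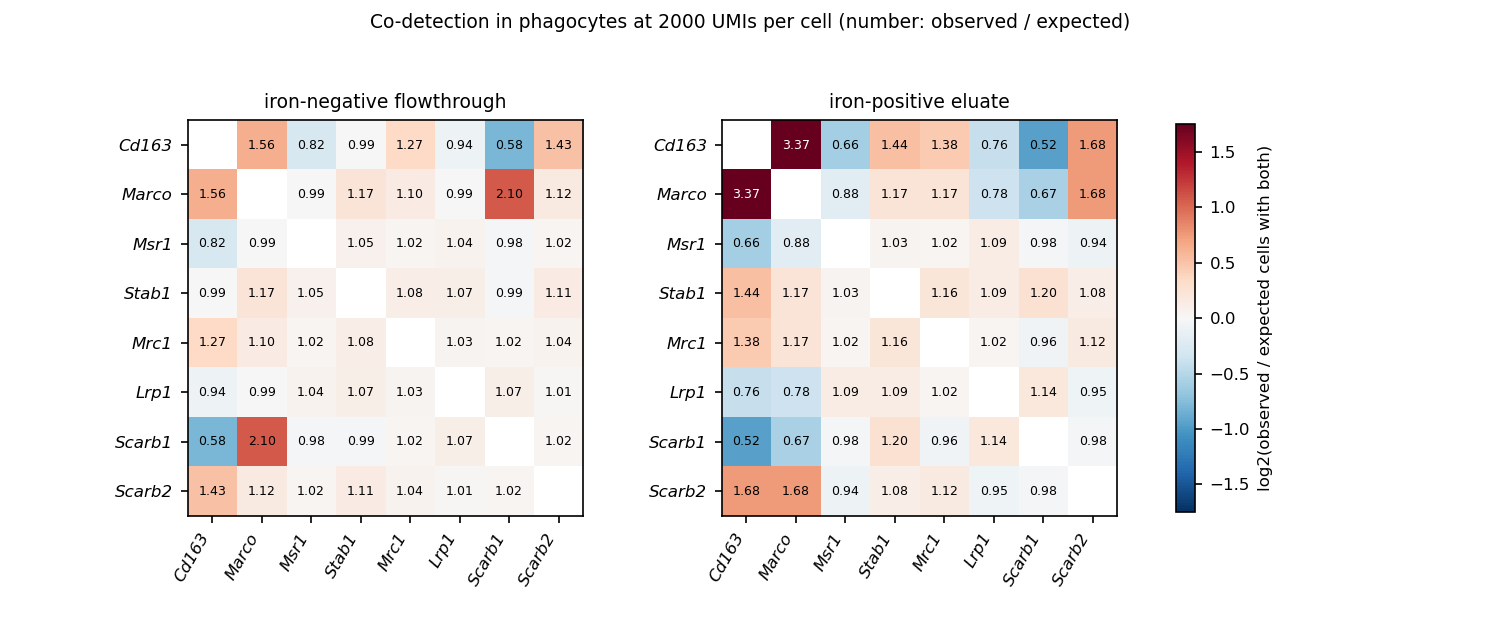
Cells with both receptors of a pair over the number given by the product of their shares, at 2000 UMIs per cell, in iron-negative (left) and iron-positive (right) phagocytes, with the ratio printed and coloured on a log2 scale. The Cd163 and Marco pair of the iron-positive library has the highest ratio, 3.37, and Cd163 with Scarb1 the lowest, 0.519.

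Cells with Cd163 carried more Mrc1 in both libraries. Thinned to 2000 UMIs, the 511 iron-positive cells with Cd163 had 4.18 Mrc1 UMIs per cell against 1.63 in the 7103 cells without it, and the 213 iron-negative cells had 4.85 against 2.15. Msr1 was lower in cells with Cd163, 0.530 against 0.882 UMIs per iron-positive cell. Hmox1, the gene of heme oxygenase 1, had 5.87 against 3.03 UMIs per iron-positive cell and 3.27 against 0.906 per iron-negative cell. Slc40a1, the ferroportin gene, was 0.438 against 0.171 in iron-positive cells, and Maf, a macrophage transcription factor gene, 2.09 against 0.907. In iron-negative cells the Slc40a1 ratio of cells with to cells without Cd163 was 1.90, with an interval that held 1 (0.506 to 5.05). The MHC class II gene H2-Aa was 1.64 against 4.87 and the macrophage elastase gene Mmp12 0.464 against 1.35 in iron-positive cells. In iron-negative cells Mmp12 was 0.141 with and 0.116 without Cd163, with an interval of the ratio that held 1 (0.814 to 1.74). None of these comparisons was taken state by state. The Cd209f Lyve1 and Retnla Cbr2 states held 36.0% and 18.4% of the iron-positive cells with Cd163.

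Cells with Marco showed higher values still of Hmox1 and Slc40a1. Not every heme gene compared differed between iron-positive cells with and without Cd163 or Marco. The 287 iron-positive cells with Marco had 7.64 Hmox1 UMIs per cell against 3.04 in those without, and 0.725 against 0.168 of Slc40a1. The 78 iron-negative cells with Marco had 4.17 against 0.935 Hmox1 UMIs and 0.128 against 0.00902 Slc40a1 UMIs. Slc40a1 was found in 7.69% of these 78 cells, so its value rests on few cells. Scarb2 was 0.484 against 0.271 per iron-positive cell, while Stab1 was 0.467 against 0.443 with an interval of the ratio that held 1 (0.881 to 1.25). The genes compared here were chosen with earlier results known, states were not separated, and cells of 1 library are not replicates.

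Of 29 further scavenger and endocytic receptor genes, 13 were measured in phagocytes and 16 were under 10 CPM in both libraries. Of the 13, 12 differed by less than 1.5-fold, and 1 was higher by at least that much: Cd36, the fatty acid and oxidized lipoprotein receptor gene, with 26.3 CPM in iron-negative and 196 CPM in iron-positive cells (7.45-fold, 7.17 to 7.73). Of all genes measured, 2.29% were higher and 0.622% lower by at least 1.5-fold. No measured receptor of that list was lower by as much, and their median log2 ratio was 0.00, beside -0.11 for all genes. Receptors under 10 CPM were not counted, and some of them differed. Colec12 (2.79 to 9.22 CPM) was 3.31-fold and Cd5l (0.472 to 1.44 CPM) 3.04-fold higher, and Ager (1.04 to 0.652 CPM) was 1.59-fold lower. Among 22 genes of hemoglobin and heme handling, 18 were measured, 4 were higher (beside 2.29% of all genes) and 0 lower (beside 0.622%), with a median of -0.09. With cells thinned to 1000 UMIs, with a minimum of 50 CPM, or without the Cd209f Lyve1 and Retnla Cbr2 states, 3 were higher. The 4 were Slc40a1 (5.48 to 102 CPM), Hmox1 (391 to 1527 CPM), Slc48a1, the phagolysosomal heme transporter gene (68.1 to 164 CPM), and Il10, the gene of a cytokine known to raise CD163 (9.95 to 15.6 CPM). Slc40a1 and Il10 reached 10 CPM in the iron-positive library alone, so they were measured only through the library where they were higher. The share of all genes has the same filter. Of the genes that act on the receptors themselves, Adam17, whose protease sheds CD163, was 152 and 131 CPM, and Lrpap1, the chaperone of LRP1, was 99.3 and 106 CPM.

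The genes whose level over 26 sums (22 phagocyte state sums and 4 stromal sums of both libraries) was most like that of each receptor were taken among 7490 genes by Pearson r of log2 CPM. For Cd163 they were Tmem8 (0.938), Wfdc17 (0.936) and F13a1, the coagulation factor XIII A gene (0.933). For Marco they were Lipa, the lysosomal acid lipase gene (0.902), Wfdc17 (0.899) and Nrp2 (0.881). Mrc1 was nearest to Wdfy2, Ap1b1 and Nxpe5 (0.988 to 0.992), and Scarb2 to Sel1l, Fxyd2 and the lysosomal membrane gene Lamp1 (0.958 to 0.961). Stab1 was nearest to Tbc1d22a (0.976), Hfe, the hemochromatosis gene (0.965), and Pwwp2b (0.960), and Msr1 to Igsf6, Slc7a8 and Arl11 (0.988 to 0.990). For Msr1 these values were between 0.629 and 0.659 over the phagocyte states alone, so the likeness rested on the gap between phagocytes and stroma. Lrp1 was nearest to Cd44 (0.903), Vegfa and Rnf149 (both 0.887), and Scarb1 to Eif2b2 (0.913), Strn4 (0.904) and Arglu1 (0.895). Over the phagocyte states alone, the Lrp1 values were 0.616 with Cd44, 0.703 with Vegfa and 0.794 with Rnf149. Those of Scarb1 lay between 0.748 and 0.827. The sums share libraries and depth, and no p-value is given.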

How the data were processed

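Each library's table held counts: raw UMIs per gene and barcode, deposited by the authors and not normalized. Cell Ranger 3.1.0 and the mm10 build are named, per the submitters' processing notes, and Cell Ranger 5.0.0, per the file headers. The version behind the counts was not settled. An annotation release was not given in the sources used here. Coordinates came from the GENCODE annotation of the same build. Counting by strand is not stated, so reads of overlapping genes may be shared.

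The 2 libraries, 1 per group, were compared with no test, as ratios of summed UMIs in CPM of the gate. Log2 ratios used each count plus 0.5, and ratio intervals were exact conditional ones at 95%. Cells needed at most 15% mitochondrial UMIs and 200 genes. A phagocyte had at least 3 phagocyte markers and 75 marker UMIs per 10000 and passed no other gate. A cell of another class had at least 3 markers and 10 marker UMIs per 10000, with under 50 phagocyte marker UMIs per 10000. A state was the highest mean z-score of its markers, if 0.5 or more. Gate limits were set after the marker sums were seen, so the names are rebuilt names. The members and lists were chosen with earlier results of these data known. Named genes were the 8 receptors, measured list genes past 1.5-fold, and the 3 genes most like each receptor, leaving out gate markers, ribosomal and mitochondrial genes and numbered gene models. Other genes printed were named after their values were seen. Clec7a of the receptor list was not analysed here, and 1 gene of the heme list is counted but not reported here.

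Alternatives changed the mitochondrial limit, the gene minimum, the summing, the scaling, the depth, free RNA, doublet-like cells, state weights, state gates and the CPM minimum. Chosen after seeing the data were leaving out the Cd209f Lyve1 and Retnla Cbr2 states, leaving out the Mmp12 state, and keeping only cells with at least 2000 UMIs. From 3 counts, the limit that a count of 0 allows was 0.0319% of kept iron-negative cells and 0.0247% of kept iron-positive cells. The total was 132796517 UMIs in the iron-negative and 129921053 in the iron-positive library. The ratio script was tested on simulated data. Versions were matplotlib 3.10.9, pandas 2.3.3, scipy 1.17.1 and numpy 2.4.6 under Python 3.11.15.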

Additional observations from a re-analysis of the deposited data

Results flagged for a closer look

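The ratio of iron-positive over iron-negative Cd163 lay on both sides of 1 among phagocyte states, from 0.756 in the monocyte state to 6.04 in the type I interferon state, and the difference between the states was not tested. Msr1 did so from 0.687 in the Cd209f Lyve1 state to 1.07 in the monocyte state, and Scarb2 from 0.900 in the MHC class II state to 1.52 in the Retnla Cbr2 state, also untested. With 1 library per group, these values have no replicate behind them.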

How the results depend on the processing

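No paired analysis was possible because each group held 1 library, and no library could be left out. Over 11 alternatives the phagocyte log2 ratio stayed between 1.36 and 2.10 for Cd163 and between 1.27 and 2.35 for Marco, and below 0 for Stab1, Mrc1, Lrp1 and Scarb1. Receptors lower by at least 1.5-fold went from 1 to 0 in phagocytes with states weighted equally (Stab1 -0.48), and from 2 to 1 over all kept cells with median-ratio scaling (Mrc1 -0.52) and with cells thinned to 1000 UMIs (Mrc1 -0.53). For Cd163, 1.97 became 1.68 with the mean of each cell's CPM, 2.05 with median-ratio scaling, 1.66 with cells thinned to 1000 UMIs, 1.36 with states weighted equally, 1.37 without the Cd209f Lyve1 and Retnla Cbr2 states and 2.10 without the Mmp12 state. Signs turned for Msr1 in phagocytes (0.06 with median-ratio scaling, 0.01 with free RNA subtracted, 0.01 without the Cd209f Lyve1 and Retnla Cbr2 states), for Scarb2 in phagocytes (-0.01 without those states), and over all kept cells for Scarb2 (0.02 with median-ratio scaling) and Scarb1 (-0.12 with cells thinned to 1000 UMIs). States with a Cd163 interval above 1 went from 7 to 2 with cells thinned to 1000 UMIs, which leaves fewer UMIs. Pairs found together more often than their shares give went from 11 to 23 without thinning, where depth varies between cells. Other receptors higher by at least 1.5-fold went from 1 to 2 with the mean of each cell's CPM and with states weighted equally. The cause of the other changes was not tested. Depth limits the statements on Cd163 and Marco in states with under 100 UMIs.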
